A study of Arabidopsis thaliana with 4 samples.

Results

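Arabidopsis genes that sense, signal or store iron were followed across the arrays of seedlings exposed to reactive volatiles. They comprise 10 loci of the 25418 with a matched probe. These are the class Ib bHLH factors BHLH38 (AT3G56970), BHLH39 (AT3G56980), BHLH100 (AT2G41240) and BHLH101 (AT5G04150), the E3 ligase BTS (AT3G18290), the repressor PYE (AT3G47640), and the ferritins FER1 (AT5G01600), FER2 (AT3G11050), FER3 (AT3G56090) and FER4 (AT2G40300). The set was chosen by name with their differences between volatile and solvent in view, so those differences are given as a description and carry no test. The choice used no numerical threshold.

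The samples were seedlings of the wild-type ecotype Columbia-0, sown on peat pellets and held for 30 min at 25 °C in a closed box. Each box received solvent alone (acetonitrile, MeCN) or (E)-2-pentenal, 3-hepten-2-one or crotonaldehyde dissolved in it, at a nominal 10 µM, and every volatile group therefore also received acetonitrile. RNA of at least 6 plants was pooled per sample and hybridised to 1 one-colour Agilent array, so each of the 4 groups has 1 array and no spread between samples can be given. No age is given in the labels. In pooled RNA of seedlings, fewer cells of a type and less RNA per cell cannot be told apart.

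Iron-starved plants switch on the class Ib bHLH genes, whose products pair with the factor FIT to activate root genes for reducing and importing iron. BTS binds iron and marks upstream class IVc bHLH factors for degradation, and PYE represses genes of iron transport and storage, so both restrain the response while their own transcripts are iron-deficiency induced. Ferritins are iron storage cages, found in plants mainly in plastids, and their transcripts usually accumulate when iron is in excess.

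Levels are given as the scanner's processed spot signal, scaled so that the 75th percentile of every array equals that of the acetonitrile array, and a level belongs to 1 probe and cannot be set against that of another. The arrays had 43803 non-control spots each, of which between 72.6% and 74.4% were well above background by the scanner's flag, and none was saturated. Before scaling, the 75th percentile was 1667, 1518 and 1531 on the acetonitrile, (E)-2-pentenal and 3-hepten-2-one arrays and 1048 on the crotonaldehyde array. The crotonaldehyde array lay on another slide, with another scan date or time, than the other 3. Slide and treatment therefore cannot be told apart in any comparison with it. For 16 probes spotted 5 times on each array, the repeat spots of a probe gave differences from acetonitrile with a pooled log2 SD of 0.0805 with (E)-2-pentenal, 0.103 with 3-hepten-2-one and 0.106 with crotonaldehyde. That spread, like the scanner's spot error quoted below, covers variation within an array only.

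A gene counted as measured in a comparison where its probe was well above background on at least 1 of the 2 arrays, and as higher or lower where the arrays differed by 2-fold or more. Where it was well above background on 1 array alone, the difference is a bound and is written "at least". After crotonaldehyde, 5 of the 10 loci were higher (BHLH38, BHLH39, BHLH100, BHLH101 and BTS) and 2 were lower (FER1 and FER4). Over all 20284 genes measured in that comparison, 9.37% were higher and 17.1% lower. After 3-hepten-2-one, 2 of 10 were higher (FER1 and BHLH39) and none lower, against 7.43% and 5.27% of 20175 genes. After (E)-2-pentenal, 1 of 9 measured was higher (PYE) and none lower, against 4.95% and 2.72% of 19987 genes. These background shares stand beside the counts for reference, since the same comparisons served to pick the loci. The medians over the members well above background on both arrays were log2 differences of 0.09 with (E)-2-pentenal (7 genes), 0.41 with 3-hepten-2-one (7) and 0.44 with crotonaldehyde (8), beside -0.07, -0.07 and 0.01 over all genes. All 3 comparisons share the acetonitrile array. For crotonaldehyde, the median joins genes that lay far apart: the differences ran from -3.25 for FER1 to 7.76 for BHLH100.

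**Figure D1:**
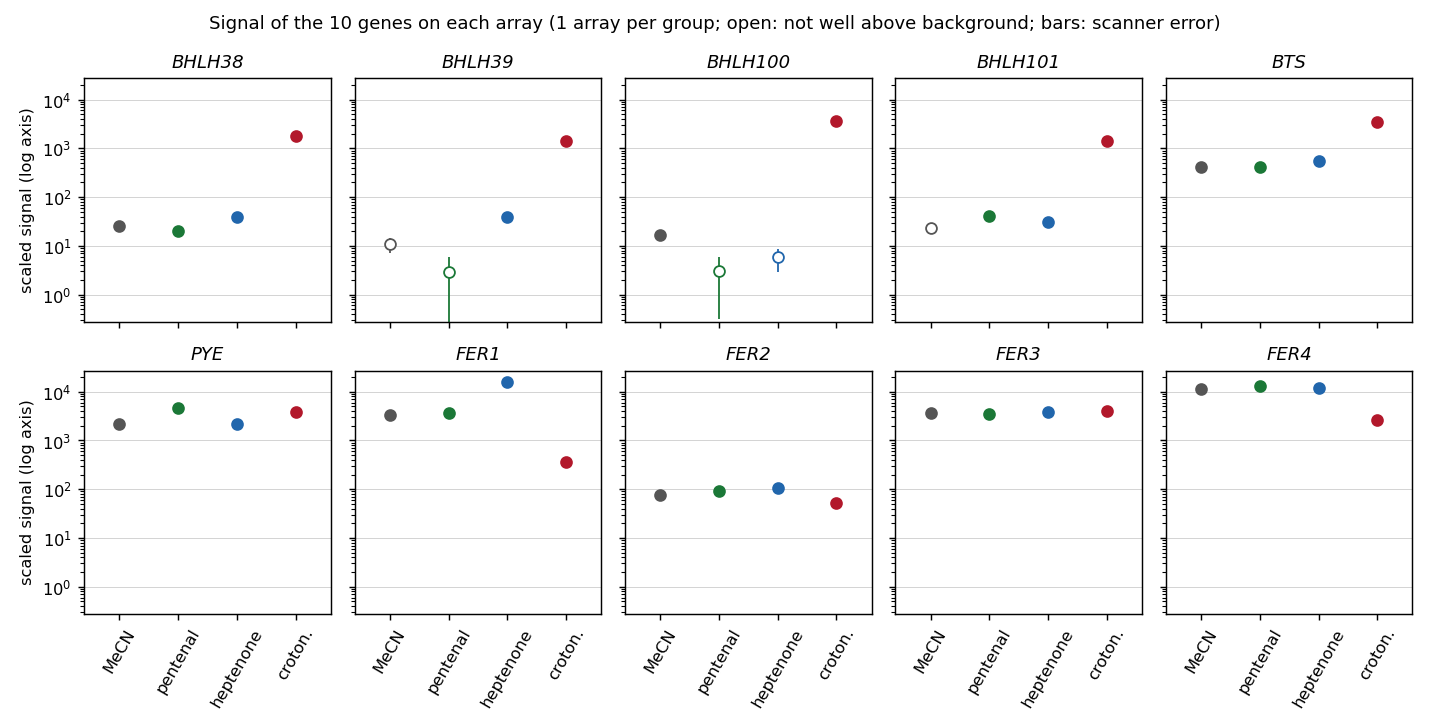
Scaled signal (log axis) of each of the 10 genes on the acetonitrile (MeCN), (E)-2-pentenal, 3-hepten-2-one and crotonaldehyde arrays, 1 array per point, with bars for the scanner's spot error and open points for spots not well above background. The 4 class Ib bHLH genes sit between 1417 and 3576 on the crotonaldehyde array and at or below 40.7 on the others, while FER1 reaches 16143 after 3-hepten-2-one and 357 after crotonaldehyde.

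The 4 class Ib bHLH factors were at or near background in seedlings given acetonitrile, (E)-2-pentenal or 3-hepten-2-one and bright after crotonaldehyde. BHLH38 had a scaled signal of 26.1 in acetonitrile, 20.1 after (E)-2-pentenal, 38.4 after 3-hepten-2-one and 1805 after crotonaldehyde. BHLH100 read 16.5 in acetonitrile, 3.07 after (E)-2-pentenal, 5.79 after 3-hepten-2-one and 3576 after crotonaldehyde, the middle values being not well above background. In both genes the crotonaldehyde array stood alone and the other 3 lay close to the detection limit. BHLH39 read 10.8 and 2.96 on the acetonitrile and (E)-2-pentenal arrays, neither well above background, 38.9 after 3-hepten-2-one and 1426 after crotonaldehyde. BHLH101 read 23.8 in acetonitrile, not well above background, 40.7 after (E)-2-pentenal, 30.6 after 3-hepten-2-one and 1417 after crotonaldehyde. The 4 factors are related in sequence and act partly redundantly, and cross-hybridisation between their probes was not analysed here.

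In crotonaldehyde against acetonitrile, BHLH100 was 217-fold higher (log2 difference 7.76, scanner error 0.34), which placed it at rank 10 from the top of 18550 genes well above background on both arrays. BHLH38 was 69.0-fold higher (6.11, scanner error 0.29) at rank 26. For the pair whose acetonitrile spot was not well above background, the differences are bounds, at least 90.2-fold for BHLH39 and at least 59.6-fold for BHLH101. The size of these differences rests on how the dim spots are processed. Normexp correction of the raw spot signals was run with an offset of 50 added to every spot, which shrinks differences that involve dim spots. With it the differences became 4.37, 4.26, 5.67 and 3.78 on the log2 scale for BHLH38, BHLH39, BHLH100 and BHLH101. All 4 stayed past 2-fold.

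After the other volatiles the same factors gave small or unresolved differences. BHLH38 differed from acetonitrile by -0.38 after (E)-2-pentenal and by 0.55 after 3-hepten-2-one, with scanner errors of 0.37 and 0.31. BHLH39 was at least 2.46-fold higher after 3-hepten-2-one, a call that ended with normexp correction (log2 difference 0.50), and was not measured in (E)-2-pentenal against acetonitrile. BHLH101 was at least 1.71-fold higher with (E)-2-pentenal and at least 1.29-fold higher with 3-hepten-2-one, bounds short of 2-fold and so unresolved. BHLH100 was at least 1.19-fold lower after each of them, where its own acetonitrile spot was just detected.

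BHLH38 and BHLH39 are next to each other in the RefSeq annotation of TAIR10.1, which was used for gene names and gene order only. The genes on either side of that pair stayed within 2-fold of acetonitrile. PIP5K4 (AT3G56960), a phosphatidylinositol phosphate kinase gene that precedes BHLH38, had log2 differences of -0.30 with (E)-2-pentenal, -0.52 with 3-hepten-2-one and 0.11 with crotonaldehyde. EDA7 (AT3G56990), which follows BHLH39, differed by 0.10, -0.23 and 0.14.

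**Figure D2:**
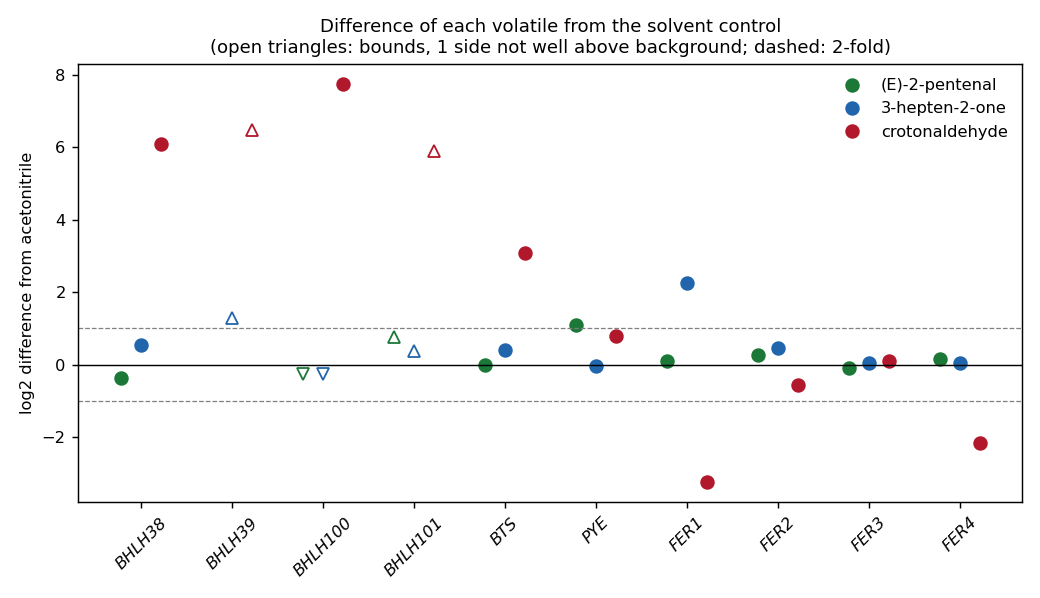
Log2 difference of each volatile array from the acetonitrile array for the 10 genes, with open triangles for bounds and dashed lines at 2-fold. Crotonaldehyde points spread from -3.25 (FER1) to 7.76 (BHLH100), whereas the (E)-2-pentenal points lie between -0.38 and 1.09.

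The E3 ligase gene BTS was higher after crotonaldehyde, and the repressor gene PYE after (E)-2-pentenal. BTS had a scaled signal of 412 in acetonitrile, 412 after (E)-2-pentenal, 546 after 3-hepten-2-one and 3500 after crotonaldehyde. It was thus level on the first pair of arrays, slightly higher after 3-hepten-2-one, and 8.49-fold higher after crotonaldehyde (log2 difference 3.09, scanner error 0.20). A second BTS probe read 135, 154, 143 and 576 on the same arrays and was 4.26-fold higher after crotonaldehyde (2.09). The probes gave the same direction there with unequal sizes. After 3-hepten-2-one the second probe differed from acetonitrile by 0.08, so the slight rise with that volatile rests on 1 probe.

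PYE, a bHLH repressor with many iron-homeostasis targets, was well above background on every array. Its scaled signal was 2200 in acetonitrile, 4699 after (E)-2-pentenal, 2130 after 3-hepten-2-one and 3795 after crotonaldehyde. The (E)-2-pentenal array was the highest, the crotonaldehyde array next, and the other pair differed by less than the scanner's error. Its difference from acetonitrile was 2.14-fold after (E)-2-pentenal (1.09, scanner error 0.20), close to the 2-fold limit, and 1.73-fold after crotonaldehyde (0.79), below it. With arrays scaled to their medians instead, the crotonaldehyde difference was 1.11 and passed the limit. No other member was past 2-fold after (E)-2-pentenal with these settings.

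The 4 ferritin genes did not move together. FER1, the main iron- and stress-responsive leaf ferritin, had a scaled signal of 3399 in acetonitrile, 3616 after (E)-2-pentenal, 16143 after 3-hepten-2-one and 357 after crotonaldehyde. The first pair of arrays differed by less than the scanner's error, the 3-hepten-2-one array was the highest of the 4 and the crotonaldehyde array the lowest. FER1 was 4.75-fold higher after 3-hepten-2-one (2.25, scanner error 0.20, rank 326 from the top of 19293 genes) and 9.51-fold lower after crotonaldehyde (-3.25, scanner error 0.20, rank 266 from the bottom of 18550). Its other probes had the same order of arrays. One read 900, 1041, 4717 and 110 in the order above, and the other read 165, 167, 773 and 35.8. Their differences were 2.39 and 2.23 after 3-hepten-2-one and -3.03 and -2.20 after crotonaldehyde, so the 3 probes gave a narrower range for 3-hepten-2-one than for crotonaldehyde.

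FER4, another plastid-targeted ferritin that is also found in mitochondria, was lower after crotonaldehyde and within 2-fold of acetonitrile after the other volatiles. Its scaled signal was 11630 in acetonitrile, 13007 after (E)-2-pentenal, 11918 after 3-hepten-2-one and 2580 after crotonaldehyde. The first 3 arrays lay close together and the crotonaldehyde array was 4.51-fold below acetonitrile (-2.17, scanner error 0.20). The second FER4 probe read 5855, 6257, 6084 and 1260 and gave -2.22 for the same comparison.

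FER3, whose product is a further leaf ferritin, had scaled signals of 3739, 3496, 3825 and 3988 in the array order used above. Its differences from acetonitrile of -0.10, 0.03 and 0.09 were within the scanner's error of 0.20, and the sign of the last pair turned with the scaling of the arrays. FER2, the ferritin known from seeds, had scaled signals of 76.4, 92.1, 106 and 52.0. Its differences of 0.27, 0.47 and -0.56 were all within 2-fold. The ferritin probes of FER1, FER3 and FER4 come from related genes, and cross-hybridisation between them was not analysed here.

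**Figure D3:**
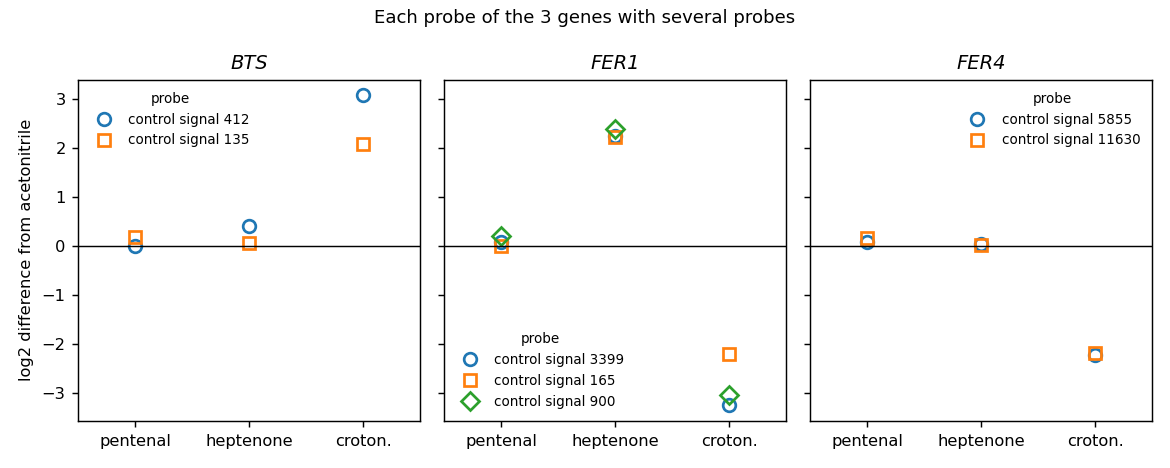
Log2 difference from the acetonitrile array for every probe of BTS, FER1 and FER4, the 3 genes with several probes. Probes of a gene share the direction of each difference past 2-fold, and after crotonaldehyde they range from 2.09 to 3.09 for BTS and from -3.25 to -2.20 for FER1.

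Crotonaldehyde and (E)-2-pentenal are α,β-unsaturated aldehydes that differ in chain length, whereas 3-hepten-2-one is an α,β-unsaturated ketone. The volatiles had the same nominal dose and exposure time, and 3 pairs were compared, with 1 array each and so no test or interval between samples. These comparisons rest on the same arrays as those that chose the loci. In (E)-2-pentenal against crotonaldehyde, the longer against the shorter aldehyde, 2 of 10 members were higher (FER1 and FER4) and 5 lower (the class Ib factors and BTS), against 15.4% and 6.47% of 20333 genes. BHLH38 stood 90.0-fold below its crotonaldehyde level (-6.49), at rank 1 from the bottom of the 18689 genes detected on both arrays. That ranking leaves out BHLH100 and BHLH39, which were not well above background after (E)-2-pentenal and were at least 259-fold and at least 103-fold lower. BHLH101 was 34.8-fold lower. BTS was 8.51-fold lower, FER4 5.04-fold higher and FER1 higher by 3.34 on the log2 scale with (E)-2-pentenal. PYE differed by 0.31 and FER3 by -0.19 between these aldehydes.

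In the ketone 3-hepten-2-one against crotonaldehyde, 3 of 10 members were higher (FER1, FER4 and FER2) and 5 lower (the class Ib factors and BTS), against 18.0% and 10.3% of 20503 genes. FER1 was 45.2-fold higher after 3-hepten-2-one (5.50, scanner error 0.20). FER2 was 2.03-fold higher, just past the limit, and fell within it with normexp correction (0.32), quantile normalization (0.49), median scaling (0.73) and cyclic loess (0.83). BHLH38, BHLH39 and BHLH101 were 47.0-fold, 36.6-fold and 46.3-fold lower, and BHLH100 at least 258-fold lower.

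In 3-hepten-2-one against (E)-2-pentenal, which share a slide, 2 of 9 measured members were higher (FER1 and BHLH39) and 1 was lower (PYE), against 5.48% and 4.7% of 20238 genes. FER1 was 4.46-fold higher after the ketone (2.16), and PYE 2.21-fold lower (-1.14). BHLH39 was at least 2.82-fold higher, which normexp correction reduced to 0.69 on the log2 scale. Differences of BTS, FER2, FER3 and FER4 between these arrays were 0.41, 0.20, 0.13 and -0.13.

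The rest of the iron network was read from 8 lists of 68 genes, of which 66 had a probe and 57 were measured against acetonitrile. After crotonaldehyde, 7 of 57 were higher and 12 lower, or 12.3% and 21.1%, near the background shares of 9.37% and 17.1%. The median over the 52 genes well above background on both arrays was 0.02, beside 0.01 over all genes. After (E)-2-pentenal, 1 was higher and 3 lower (1.75% and 5.26%, beside 4.95% and 2.72% of all genes), and after 3-hepten-2-one 1 was higher and 1 lower (1.75% each, beside 7.43% and 5.27%).

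Upstream of the class Ib genes, ILR3, BHLH104, BHLH115, BHLH34 and URI, which activate them, were all within 2-fold of acetonitrile after each volatile. BHLH11, a class IVb repressor of the response, was 5.15-fold lower after crotonaldehyde, with scaled signals of 135 in acetonitrile and 26.3, although normexp correction left a log2 difference of -0.57. IMA1 and IMA2, which encode small peptides that promote iron uptake, were higher after crotonaldehyde, 18.6-fold (357 to 6649) and 13.2-fold (717 to 9462). No probe matched IMA3 or FRD3. The BTS-like ligase genes BTSL1 and BTSL2 were within 2-fold after crotonaldehyde (0.52 and 0.06).

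FIT, the partner of the class Ib factors, was 2.01-fold higher after (E)-2-pentenal (150 to 301), at the limit and inside it under 3 of 7 alternatives, and differed by -0.13 after crotonaldehyde. Among the class IVa factors, which also bind FIT, BHLH19 was 2.43-fold higher after crotonaldehyde and 2.87-fold lower after (E)-2-pentenal. NAI1, of the same class, was 2.57-fold lower after (E)-2-pentenal and 2.33-fold higher after 3-hepten-2-one. Of the 10 genes for root iron uptake and coumarin secretion, the transporter genes IRT1 and IRT2 and the coumarin enzyme genes F6'H1, S8H and CYP82C4 were not well above background on any array. The ferric reductase gene FRO2 had scaled signals of 52.9 in acetonitrile and 76.1 after crotonaldehyde, within 2-fold. ABCG37, a coumarin exporter gene, was at least 2.49-fold lower after crotonaldehyde and 2.08-fold lower after (E)-2-pentenal, the last inside 2-fold with normexp correction, quantile normalization and cyclic loess (as near to 0 as -0.29). NRAMP1, a manganese and iron importer gene, was 2.28-fold lower after crotonaldehyde.

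Of the 4 NAS genes, which encode synthases of the iron chelator nicotianamine, 3 were lower after crotonaldehyde. NAS1 went from a scaled signal of 2279 in acetonitrile to 12.8, not well above background, and was at least 136-fold lower. NAS2 was at least 5.64-fold lower and NAS3 4.32-fold lower, while NAS4 was within 2-fold (-0.74). The NAS genes are close relatives, so their probes may share signal, and the probe sequences were not analysed here. In the same list, the phloem iron transporter gene OPT3 was 2.66-fold higher and the vacuolar nicotianamine carrier gene ZIF1 2.14-fold higher, the last past 2-fold under 3 of 7 alternatives, and the metal-nicotianamine transporter gene YSL2 was 2.48-fold lower.

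Ferric reductases other than FRO2 and organelle iron carriers formed another list, with these differences after crotonaldehyde. FRO3, a mitochondrial ferric reductase gene, was 2.41-fold higher and NRAMP4, which releases vacuolar iron, 2.26-fold higher. NRAMP3, its close homologue, was 2.23-fold lower. The vacuolar transporter-like gene VTL5 was 5.05-fold lower and VTL2 at least 2.53-fold lower, and the reductase genes FRO6 and FRO7 were 2.49-fold and 2.06-fold lower. With normexp correction, NAS2, ABCG37 and VTL2 fell inside the 2-fold limit (-0.57, -0.22 and -0.12). With median scaling, NRAMP1, ABCG37, YSL2, FRO6, FRO7 and NRAMP3 fell inside the 2-fold limit. FRO8, another reductase gene of that list, was 2.26-fold lower after 3-hepten-2-one.

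None of the 12 genes of iron-sulphur cluster assembly was past 2-fold after any volatile, and their crotonaldehyde differences ran from -0.59 to 0.67. The 3 genes listed as upstream regulators of FER1 (PHR1, PHL1 and TIC) are not a full set, and PYE, introduced above as a repressor of storage genes, is not among them. None of these 3 was past 2-fold either. Their differences ran from -0.32 to -0.07 after crotonaldehyde and from -0.81 to 0.39 after 3-hepten-2-one, the volatiles after which FER1 was furthest from acetonitrile.

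**Figure D4:**
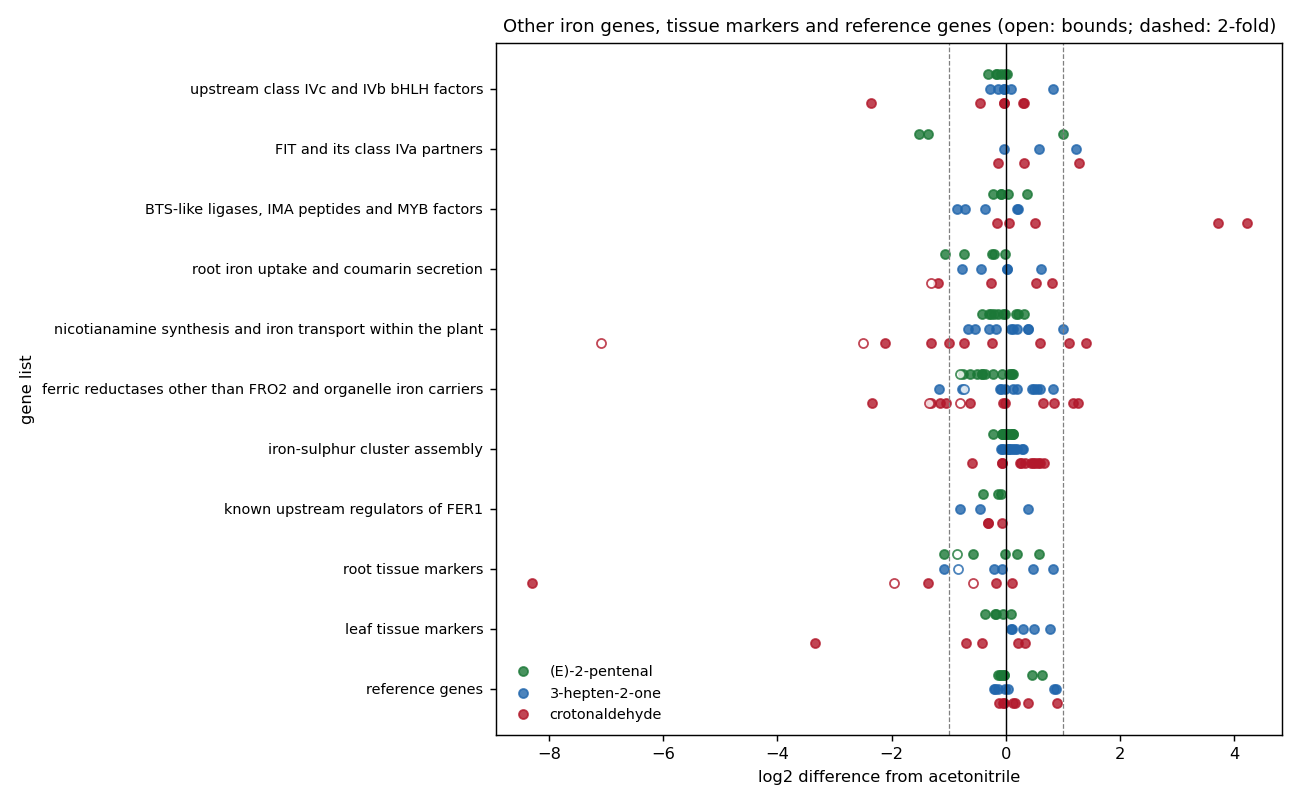
Log2 difference from the acetonitrile array for genes of the other iron lists, tissue markers and reference genes, 1 point per gene and volatile, with open points for bounds and dashed lines at 2-fold. Among the iron genes after crotonaldehyde, IMA1 and IMA2 lie highest at 4.22 and 3.72 and NAS1 lowest at a bound of -7.08, while the iron-sulphur cluster genes stay between -0.59 and 0.67.

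Tissue markers moved with the crotonaldehyde array too. Of 10 root markers, 6, 5, 5 and 4 were well above background on the acetonitrile, (E)-2-pentenal, 3-hepten-2-one and crotonaldehyde arrays, and their summed scaled signals were 30121, 14465, 52832 and 335. Most of that sum was PYK10, a root beta-glucosidase gene, at 29695, 14037, 52413 and 93.9. The Casparian strip gene CASP1 was at least 3.88-fold lower and CASP2 2.56-fold lower after crotonaldehyde, but both were inside 2-fold with normexp correction (CASP1 at -0.32), and CASP2 also with quantile normalization. CASP1 was 2.12-fold lower after 3-hepten-2-one too, and again inside 2-fold with normexp correction (-0.45). The root-hair expansin genes EXPA7 and EXPA18, CASP4 and CASP5 were not well above background on any array. All 5 leaf markers were well above background on every array, with summed scaled signals from 1.70e+06 to 2.26e+06, and LHCB2.1, a light-harvesting gene, was 10.2-fold lower after crotonaldehyde. The part of root or leaf content in the member differences was not tested. All 7 reference genes were within 2-fold of acetonitrile after each volatile, with medians of -0.03, -0.01 and 0.13.

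Genes whose differences lay nearest to those of BHLH38 and FER1 were found by the Euclidean distance over the 3 log2 differences from acetonitrile, among the 18412 genes that passed the background flag on every array. The 3 points share the acetonitrile array, so a small distance describes these arrays only. Nearest to BHLH38 were AT2G14247, AT1G51270, the methylesterase gene MES18, the kinase gene MAPKKK21 and the cytochrome P450 gene CYP82G1, at distances from 2.03 to 2.32, with crotonaldehyde differences from 3.93 to 4.71. Nearest to FER1 were AT1G73325, the B-box gene BBX30, the thionin gene THI2.2, OFP1 and the methylesterase gene MES9, at distances from 0.17 to 0.69. AT1G73325 had differences of 0.01, 2.19 and -3.39 for the volatiles in the order above, beside 0.09, 2.25 and -3.25 for FER1. BHLH39, BHLH100 and BHLH101 could not enter this ranking, since each failed the background flag on at least 1 array.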

How the data were processed

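Values came from the deposited scanner files of 4 one-colour arrays, which hold spot intensity after background subtraction within each array by Agilent Feature Extraction, version 10.10.1.1 per the file headers (9.1 per the submitters' processing notes). The deposited flags mark spots well above background and outliers. The authors' table of processed values equalled the processed intensity times 1 constant per array and served as an alternative. Outlier spots were left out, the log2 signal was centred on each array's 75th percentile, and a gene took its brightest probe (limma 3.58.1 for the alternatives). RefSeq accessions gave 1 locus for 34476 of 43803 spots. The members had 14 probes, 7 of the 10 being well above background on all arrays.

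With 1 array per group no test was possible, and 2-fold is a rule of size only. A dim gene was set at its own signal or at the array's detection limit, the lowest signal that passed the background flag, whichever was higher. Only the step from spots to gene differences was tested on simulated arrays, made from the acetonitrile array with planted changes. The alternatives and the search for nearest genes were not tested in that way.

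Members and gene lists were chosen with earlier results of these data known. Named are all members, up to 4 genes per list and volatile past 2-fold, and the 5 genes nearest to BHLH38 and to FER1. NRAMP3, NRAMP4, FRO7, YSL2 and ZIF1, also past 2-fold, were added after their values were seen, and genes named within 2-fold were added for their role.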

Additional observations from a re-analysis of the deposited data

Results flagged for a closer look

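FER1 lay on opposite sides of acetonitrile after a pair of volatiles: its log2 difference was 2.25 after 3-hepten-2-one and -3.25 after crotonaldehyde. Each value comes from 1 array against the same acetonitrile array, and the difference between the volatiles was not tested.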

How the results depend on the processing

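Each group has 1 array, so nothing here has a replicate check. No paired analysis was possible because the labels give no replicate numbers that groups share and no test was run; for the same reason no replicate could be left out. The promoter motifs that were planned were not searched. Of 406 member values recomputed under alternatives, 396 stayed on their side of 2-fold, 4 passed it, 6 no longer did and none reversed past it. Counts of members that moved by more than 1.5 times were these. With a 1.5-fold rule 2 were higher after (E)-2-pentenal. With a 4-fold rule none was higher after (E)-2-pentenal (0), 1 was higher after 3-hepten-2-one, and 1 was higher and 0 lower in 3-hepten-2-one against (E)-2-pentenal. With normexp 1 was higher in each of the last pair of comparisons. Without the filter on dim probes 2 were lower for (E)-2-pentenal and 1 for 3-hepten-2-one, BHLH100 among them at -2.42 and -1.51. Smaller moves were 5 to 6 higher for crotonaldehyde against acetonitrile and 5 to 6 lower for 3-hepten-2-one against crotonaldehyde (both with 1.5-fold and median scaling), 3 to 2 higher in the latter (4-fold, normexp, quantile, median scaling and cyclic loess), and 2 to 3 higher with 1.5-fold for (E)-2-pentenal against crotonaldehyde and for 3-hepten-2-one against (E)-2-pentenal. For the other iron genes (alternatives chosen after seeing the data), those higher after (E)-2-pentenal were 0 with the 4-fold rule, normexp, the mean over probes and the authors' values, and those lower were 7 and 0 with the 1.5-fold and 4-fold rules. After 3-hepten-2-one, 6 were higher and 8 lower with 1.5-fold, 0 and 0 with 4-fold, and 2 were higher with quantile normalization, median scaling, cyclic loess, the mean over probes and no filter. After crotonaldehyde, 13 were higher with 1.5-fold, 2 were higher and 5 lower with 4-fold, and 6 were lower with median scaling. The normexp setting added an offset of 50 to every spot before log2, which by itself shrinks differences that involve dim spots. How much of each normexp move came from the offset was not tested. Median scaling moved the median of all genes by 0.32 for crotonaldehyde against acetonitrile, and by -0.26 and -0.30 for (E)-2-pentenal and 3-hepten-2-one against crotonaldehyde. The authors' values moved it by -0.12 and -0.15 for 3-hepten-2-one and crotonaldehyde against acetonitrile. The share of called genes that were higher was 35.4% for crotonaldehyde against acetonitrile but 56.5% with median scaling and 49.5% without the filter. It was 70.4%, 48.8% and 51.2% in that order for (E)-2-pentenal against crotonaldehyde, and 63.7%, 43.8% and 51.1% for 3-hepten-2-one against crotonaldehyde. For 3-hepten-2-one against acetonitrile it was 58.5% and, with the authors' values, 48.4%. Signals near background limit the class Ib bHLH values outside crotonaldehyde.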

Other observations

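BHLH100 was followed in gene order by AT2G41250, which was lower after crotonaldehyde (-2.23) where BHLH100 was higher (7.76). Of the genes flanking FER1, AT5G01590 and AT5G01610 differed from acetonitrile by -0.19 and -0.75 after crotonaldehyde and by 0.25 and -0.46 after 3-hepten-2-one, all within 2-fold. The gene before FER4, AT2G40290, differed by 0.37 after crotonaldehyde. Not every gene beside a member is named here. Among measured neighbours that are not members, AT2G41250 was the only one past 2-fold after crotonaldehyde. AT2G41231, which precedes BHLH100, had a bound of 1.19 after 3-hepten-2-one and was not measured for crotonaldehyde against acetonitrile. The measured neighbours of BHLH101, PYE, FER2 and FER3 were within 2-fold after every volatile. All these values are given without a test.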
